A study of Drosophila melanogaster with 2 samples.

Results

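Hr83-GFP occupied 320 sites that lay in introns, more than 5 kb from any annotated transcription start site (TSS), among 4797 ChIP-seq peaks. These distal intronic peaks were 6.67% of the list (95% Clopper-Pearson interval 5.98 to 7.41) and 320 of the 401 peaks that lay over 5 kb from a TSS. A peak was kept when its summit, the position of highest signal, was over 5000 bp from the nearest TSS of any gene in the Ensembl BDGP6 annotation, inside a gene and in no annotated exon. Its signal played no part in this rule, although the list itself held only peaks that had passed the authors' threshold for reproducible peaks. The chromatin came from whole wandering larvae of the third instar from a transgenic Drosophila melanogaster line that stably expressed Hr83 fused at its C-terminus to GFP. Males and females were pooled, chromatin was sonicated, and an antibody against GFP was used. The series held 1 group with biological replicates 3 and 4. Whole larvae mix all tissues, so the cell type behind a peak cannot be told, and no untagged or other-factor group was compared here. What is particular to Hr83 was therefore not tested. The lists hold no read counts, so the depth is unknown, and each interval covers counting error over peaks, genes or sequence windows only.

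Hr83 is an orphan member of the NR2E class of nuclear receptors, zinc-finger proteins that bind short DNA words and recruit coregulators. Enhancers in the fly genome often lie in long introns, especially in the large first introns of developmental regulators, and can act on promoters many kilobases away. The wandering stage comes just before pupariation, when a pulse of the steroid ecdysone binds EcR and switches on early genes such as br, Eip74EF and Eip75B. A ChIP-seq peak shows where the tagged protein was crosslinked, directly or through partners, and does not show that the site acts as an enhancer.

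The sequences of 8 of the strongest distal intronic peaks are shown because they carry the highest signals. They were read from the RefSeq Release 6 genome (dm6), plus strand, 5′ to 3′, as the whole peak or the central 200 bases where it was wider. Capitals mark matches on either strand to 4 motifs: the forkhead core TGTTTAC, which reads GTAAACA on the other strand, the GAGA element GAGAGAG, the CTCF core and the AP-1 site. The CTCF core was counted where the word was AGAGGGC, where it was AGGGGGC, where it was AGATGGC and where it was AGGTGGC. The AP-1 site was counted where it was TGACTCA, which reads TGAGTCA on the other strand. The windows were chr3L:1591772-1591971 in CG13917, chr2L:1072315-1072499 in S, chr3L:3060722-3060885 in CG32486, chrX:14805879-14806038 in rut, chr3L:18011834-18011992 in Eip75B, chr2L:18981636-18981775 in Swip-1, chr2L:166609-166724 in spen and chr3R:27131518-27131647 in CG6051.
CG13917: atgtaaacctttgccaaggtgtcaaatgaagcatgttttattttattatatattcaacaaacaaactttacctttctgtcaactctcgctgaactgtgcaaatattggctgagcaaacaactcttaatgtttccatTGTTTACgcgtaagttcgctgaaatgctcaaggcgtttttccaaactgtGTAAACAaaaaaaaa
S: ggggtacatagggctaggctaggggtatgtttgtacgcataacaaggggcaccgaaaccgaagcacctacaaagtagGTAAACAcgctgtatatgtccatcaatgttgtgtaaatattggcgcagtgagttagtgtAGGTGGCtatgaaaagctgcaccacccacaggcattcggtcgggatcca
CG32486: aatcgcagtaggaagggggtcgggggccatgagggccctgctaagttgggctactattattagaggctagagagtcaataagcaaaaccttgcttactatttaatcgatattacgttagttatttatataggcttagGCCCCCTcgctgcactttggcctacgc
rut: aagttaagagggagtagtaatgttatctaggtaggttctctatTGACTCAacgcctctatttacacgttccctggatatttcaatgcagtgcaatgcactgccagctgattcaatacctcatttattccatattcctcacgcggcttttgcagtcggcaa
Eip75B: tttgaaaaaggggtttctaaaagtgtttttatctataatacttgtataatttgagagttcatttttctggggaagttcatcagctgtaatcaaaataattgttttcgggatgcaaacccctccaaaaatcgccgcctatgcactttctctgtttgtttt
Swip-1: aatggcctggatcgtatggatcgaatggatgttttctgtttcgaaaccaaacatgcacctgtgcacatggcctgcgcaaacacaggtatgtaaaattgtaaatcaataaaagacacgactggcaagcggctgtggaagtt
spen: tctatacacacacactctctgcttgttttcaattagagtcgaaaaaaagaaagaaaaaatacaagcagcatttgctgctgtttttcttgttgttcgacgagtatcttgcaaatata
CG6051: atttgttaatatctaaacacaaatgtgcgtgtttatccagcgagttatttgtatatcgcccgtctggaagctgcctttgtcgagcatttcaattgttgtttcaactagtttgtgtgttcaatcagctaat

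CG13917 held 2 forkhead cores, S held 1 beside a CTCF core, CG32486 held a CTCF core and rut an AP-1 site. The peaks of spen and CG6051 had a forkhead core in the 200 bp window searched around each summit, beyond the narrower printed peak. A further 3 sequences were chosen after the values were seen. Raf (chrX:2300658-2300762) and crp (chr2L:16272790-16272989) held a forkhead core within 50 bp of the summit, and the strongest Eip74EF peak (chr3L:17590806-17591005) held a GAGA element. Raf encodes a kinase of the Ras pathway, crp a bHLH transcription factor, and Eip74EF an Ets factor of the early ecdysone response.
Raf: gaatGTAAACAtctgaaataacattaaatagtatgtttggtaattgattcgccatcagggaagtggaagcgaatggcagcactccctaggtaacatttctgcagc
crp: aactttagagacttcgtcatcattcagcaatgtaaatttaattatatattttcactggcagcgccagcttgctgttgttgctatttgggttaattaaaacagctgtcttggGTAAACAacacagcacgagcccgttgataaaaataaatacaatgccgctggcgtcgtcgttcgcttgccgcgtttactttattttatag
Eip74EF: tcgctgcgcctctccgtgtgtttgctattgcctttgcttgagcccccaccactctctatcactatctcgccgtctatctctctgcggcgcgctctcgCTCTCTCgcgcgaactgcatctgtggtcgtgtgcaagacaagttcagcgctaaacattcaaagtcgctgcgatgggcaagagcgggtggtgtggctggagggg

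The strongest distal intronic peak lay in sbb (FBgn0285917), which encodes the transcriptional regulator Scribbler. It spanned chr2R:18337095-18337285, 20112 bp from the nearest TSS, and had a deposited signal of 1024. The signal is the authors' own score per peak, comparable only within a list. This peak ranked 6 of 30000 regions in replicate 3 (signal 382.4) and 3 in replicate 4 (signal 656.9). The peak in CG13917 (FBgn0035237, chr3L:1591763-1591991) had a signal of 920.4 and ranked 7 in replicate 3 and 5 in replicate 4. The peak in S (FBgn0003310), which encodes Star, a protein needed to deliver EGF receptor ligands, had a signal of 675.3 and ranked 8 and 11. These 3 stood among the 20 strongest peaks of the whole list, and both replicates placed them near the top.

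The other 17 of the 20 strongest distal intronic peaks had signals from 221.0 to 431.4, each in a different gene. CG32486 had 431.4, rut, an adenylyl cyclase gene, 384.0, and luna, which encodes a Krüppel-like zinc-finger protein, 366.8. In Eip75B, a nuclear receptor gene, the strongest peak had 350.0 and ranked 72 in replicate 3 and 110 in replicate 4. Swip-1, which encodes an EF-hand actin-bundling protein, had 330.6, spen, which encodes an RNA-recognition-motif corepressor, 284.3, and CG6051 280.4. The dnr1 peak had 278.2; in Drosophila dnr1 encodes a RING-domain inhibitor of the caspase Dredd. The tara peak had 256.4, and of these 20 its rank differed most between the replicates, at 1103 in replicate 3 and 53 in replicate 4. A peak inside both Mur2B and br had 255.6; br encodes the BTB zinc-finger factors of the early ecdysone response. The heph peak, in the gene for the polypyrimidine-tract binding protein, had 234.9 and lay 50481 bp from the nearest TSS. Peaks in simj, a NuRD complex subunit gene, and cact, the inhibitor of Dorsal, each had 233.1. The remaining ones lay in stx (223.8), the potassium channel gene Shal (223.1), MESR3 (222.7) and the translation initiation factor gene eIF5B (221.0). Of these 20 peaks, 18 were narrower than the full peak width of 256 bp.

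**Figure D1:**
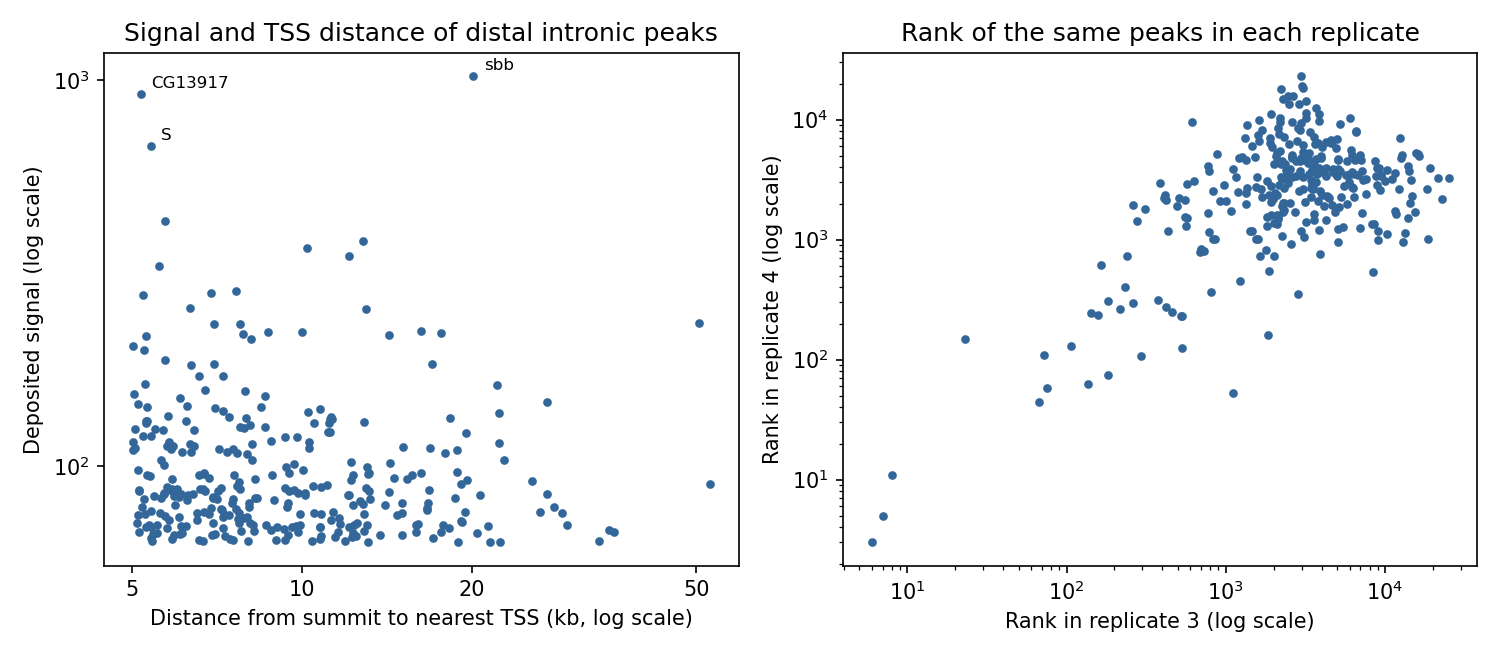
Distal intronic peaks (n = 320 on the left, 312 found in both replicates on the right). Left, deposited signal against distance from the summit to the nearest TSS in kb, both on log scales; right, the rank of the overlapping region in replicate 4 against replicate 3, on log scales. The peaks in sbb, CG13917 and S stand above all others, and the ranks follow each other at the top of the lists but spread widely below it.

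Across the 320 peaks the signal ran from 63.49 to 1024, with a median of 86.15. The median was 91.14 for peaks in introns 500 bp to 5 kb from a TSS (nearer intronic peaks, n = 896), 81.12 for intergenic peaks over 5 kb from a TSS (n = 70) and 96.66 for peaks within 500 bp of a TSS (n = 3086). With the list split by signal into 5 parts of equal size, distal intronic peaks made up 4.80% of the strongest part and 8.75% of the weakest, with 5.94%, 6.35% and 7.51% in between. The 34 narrow peaks (10.6%) had a median signal of 221.9 and a median width of 114 bp, while the 286 full-width peaks had a median signal of 83.29. At the lower end, the weakest distal intronic peaks passing the authors' irreproducible discovery rate (IDR) threshold lay in bun (63.58), luna (63.52) and sbb (63.49). The strongest distal intronic regions that did not pass lay in eIF5B (63.29), kuz (63.15) and CrebA (63.15), so almost no signal separated the weakest peaks from the regions left out.

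Each list before thresholding, called relaxed here, held 30000 regions. Of the 3782 regions of the pooled relaxed list that met the same position rule, 320 were thresholded peaks, or 8.46% (7.59 to 9.39). Over all regions of that list the share was 16.0%. It was 12.4% (11.7 to 13.2) for nearer intronic regions, 5.85% (4.59 to 7.34) for distal intergenic regions and 29.8% (28.9 to 30.7) within 500 bp of a TSS. A smaller share of distal intronic than of promoter regions thus reached the threshold; these shares were described and not tested.

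The thresholded list was made from these same replicates, so their overlap with it follows in large part from that choice and is given as a description. Replicate 3 held a region overlapping 312 of the 320 peaks and replicate 4 held one for all 320. Among the 4797 strongest regions of each replicate, 229 (71.6%) were found in replicate 3, 246 (76.9%) in replicate 4 and 169 (52.8%, 47.2 to 58.4) in both. The share found in both was 55.0% for nearer intronic peaks, 48.6% for distal intergenic peaks and 64.5% for promoter peaks. The median rank was 2861 in replicate 3 (n = 312) and 2912 in replicate 4 (n = 320). Spearman's rho between the replicates' signals was 0.31 over the 312 peaks found in both, a description over peaks that share the same pair of libraries.

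**Figure D2:**
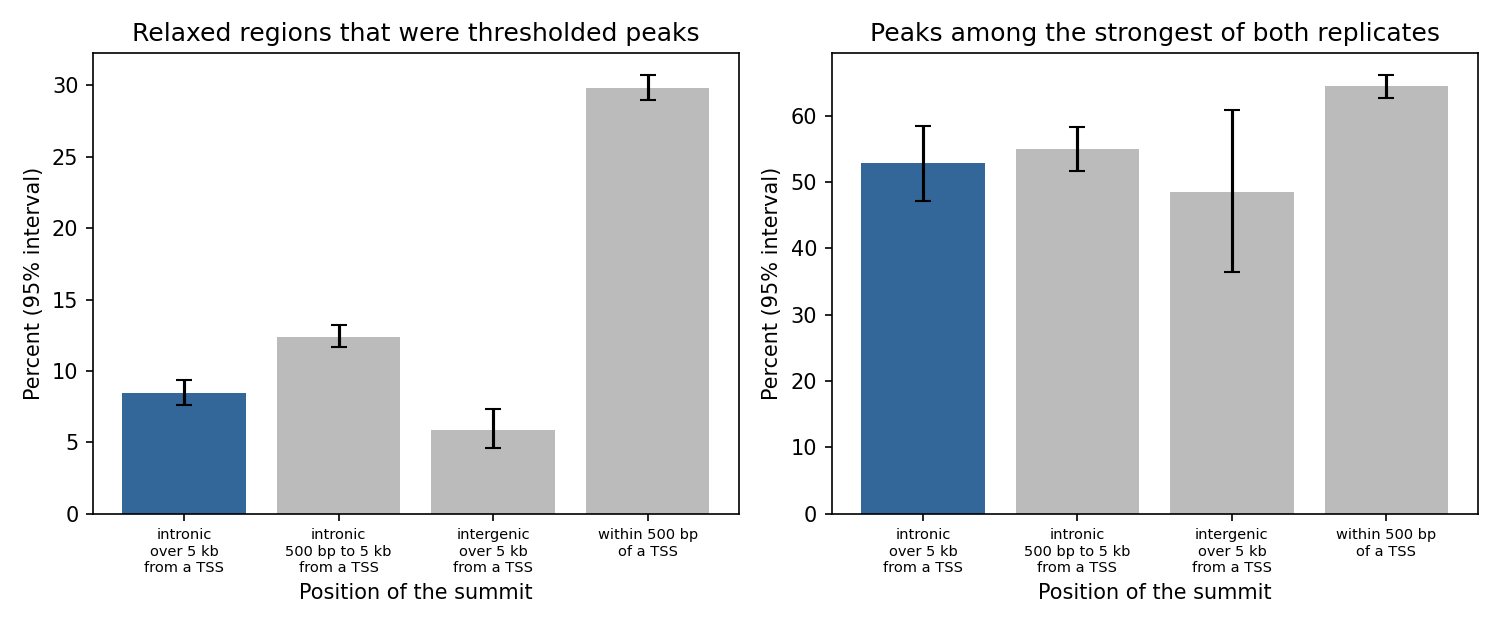
Left, percent of pooled relaxed regions in each position class that were thresholded peaks; right, percent of thresholded peaks in each class that were among the 4797 strongest regions of both replicates. Bars show percent with 95% Clopper-Pearson intervals, blue for distal intronic and grey for the other classes; distal intronic values are 8.46% and 52.8%, and peaks within 500 bp of a TSS are highest in both panels at 29.8% and 64.5%.

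Intronic sequence over 5 kb from any TSS covers 28.28 Mb, or 21.1% of the chromosomes used, and held 11.3 peaks per Mb. The density was 36.5 per Mb in nearer introns and 3.48 per Mb in distal intergenic sequence. By chromosome arm it was 18.1 per Mb on 2L (75 peaks), 12.3 on 2R (60), 12.2 on 3L (66), 9.09 on 3R (75), 8.02 on X (43) and 3.86 on 4 (1 peak). The highest density was thus on 2L, and no test was made between arms.

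The median distance from a summit to the nearest TSS was 8145 bp, with a range of 5014 to 52800 bp. Of the 320 peaks, 196 lay 5 to 10 kb away, 102 lay 10 to 20 kb away and 22 lay further. Just inside the distance threshold were peaks in Mef2 (5014 bp, signal 115.6), Smr (5015 bp, 204.5) and Sesn/CG46429 (5018 bp, 110.3). Just outside were those in cv-c (4989 bp, 100.1), CG46339 (4987 bp, 69.58) and ush (4967 bp, 605.0). Peaks on either side of the threshold overlapped in signal. For 136 peaks (42.5%) the nearest TSS belonged to a gene other than the host, so the host named here need not be the gene that a site regulates.

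Many of the peaks lay in first introns. The summit lay in the first intron of at least 1 transcript for 172 peaks (53.75%, 48.1 to 59.3), and in the first intron of every spanning transcript for 89 (27.8%). Among 14143 evenly spaced positions that met the same position rule, 30.6% and 17.3% did so. A TSS of the host gene lay downstream of the summit for 114 peaks (35.6%) and for 19.8% of those positions. The host intron was longer than 10 kb for 236 peaks (73.75%) and for 74.5% of positions. The comparison with evenly spaced positions was added after the values were seen and is a description without a test. Those positions also lay further from TSSs, at a median of 12370 bp.

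The 320 peaks lay in 205 genes, of which 198 were protein-coding. Among the 1760 protein-coding genes that had any intronic sequence meeting the rule, 11.2% held such a peak. With these genes split by the length of that sequence into 4 groups of 440, the share was 1.82% in the shortest group, then 7.27% and 14.8%, and 21.1% in the longest. Host genes had a median of 15.82 kb of it and the other coding genes 4.917 kb. The number of peaks per Mb of that sequence, counted gene by gene, ran the other way. It was 37.79 in the shortest group, then 25.67 and 20.95, and 8.562 in the longest. A single peak was found in 143 genes, and 62 genes held more, together 190 of the peaks (59.4%). Peaks in the same gene share its chromatin and are not independent. Neighbouring peaks lay within 1 kb of each other in 26 pairs.

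The gene tara, which encodes a SERTA-domain protein of the trithorax group, held most, with 11 peaks over 23.68 kb. Their signals ran from 64.39 to 256.4, all 11 lay in a first intron and 9 were among the strongest regions of both replicates. In sbb there were 10 peaks, from 63.49 to 1024, of which 3 were among the strongest of both replicates. After the peak of 1024, the next strongest in sbb had 133.0. Eip74EF held 9 peaks over 50.54 kb, from 64.87 to 219.0, with 3 shared in this way. Eip75B held 7 peaks from 67.49 to 350.0, with 6 shared. Every peak of these 4 genes overlapped a region in both relaxed lists, and the counts of shared peaks rest on the limit at rank 4797. In Eip74EF 1 peak missed it narrowly at rank 4882 in replicate 4, and another at rank 4836 in replicate 3.

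The gene crp held 6 peaks with signals from 68.18 to 140.8. The noncoding gene lncRNA:CR44357 also spanned 6, none above 86.3, in 108.2 kb of qualifying sequence, and 1 was among the strongest of both replicates. All 6 also lay inside a protein-coding gene, 4 in CG1677 and 2 in Cph. Tet, which encodes a DNA-demethylase family dioxygenase, held 5 with a highest signal of 146.7. Snoo, which encodes a Ski/Sno corepressor of TGF-beta signalling, held 5 with a highest signal of 137.1. The ecdysone receptor gene EcR, px and gpp, which encodes a histone H3 methyltransferase, held 5 each. In EcR the signals ran from 63.98 to 132.2, and 2 of the 5 were among the strongest of both replicates.

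**Figure D3:**
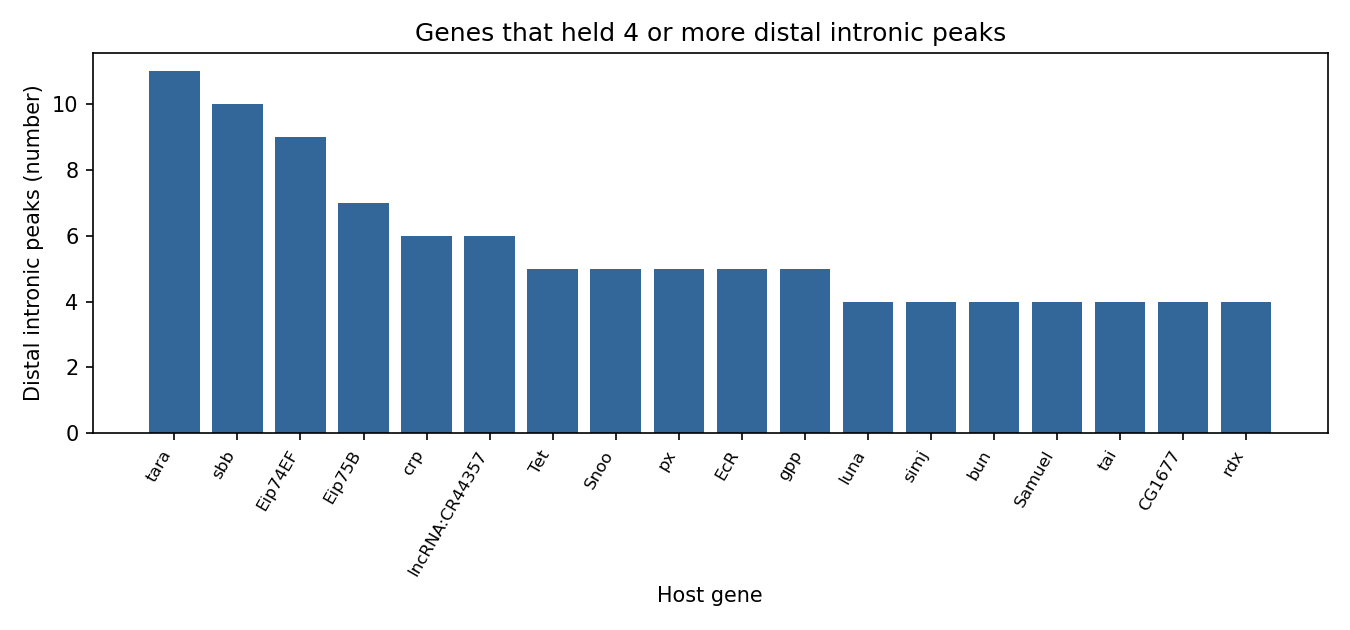
Number of distal intronic peaks (vertical axis) in each gene that held 4 or more (horizontal axis). The highest bars are tara with 11, sbb with 10, Eip74EF with 9 and Eip75B with 7; the peaks of CG1677 are also counted in lncRNA:CR44357.

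Listed genes of the ecdysone response often carried these peaks, mostly those also listed as transcription factors or cofactors. Of 17 listed genes with qualifying intronic sequence, 10 did, or 58.8% (32.9 to 81.6), beside the 11.2% of all eligible coding genes. They were luna (366.8), Eip75B (350.0), br (255.6), Eip74EF (219.0), the nuclear receptor genes Hr39 (137.8), Hr4 (134.9) and EcR (132.2), tai (112.5), the gene of an EcR coactivator, ftz-f1 (94.3) and the ABC transporter gene E23 (92.87). The value in each bracket is the signal of the gene's strongest peak. No distal intronic peak lay in the other 7, Eip63E (45.73 kb of qualifying sequence), Eip93F (38.77 kb), Eip78C, ImpE1, Hr3, Eip63F-1 and crol. The listed genes had more qualifying sequence, with a median of 30.83 kb per gene against 6.003 kb for all eligible coding genes. Within the longest of the 4 groups of coding genes 8 of 10 ecdysone genes carried a peak, beside 21.1% of all genes in that group. Among the listed transcription factors and cofactors in that group, ecdysone genes included, 18 of 37 (48.65%) carried one. Without luna, whose place in the list is the least certain, 9 of 16 carried one (56.2%). The lists were drawn up with earlier results of these data known and overlap in part, and none was tested.

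Among transcription factors and cofactors, 26 of 88 (29.5%, 20.3 to 40.2) held a peak, 9 of which are also ecdysone genes. Without the ecdysone genes 17 of 76 (22.4%) did, and without sbb, bun and ush, whose strong peaks in these data were known, 23 of 85 (27.1%). Led by sbb, luna, Eip75B and br, these genes held 39.4 peaks per Mb of qualifying sequence, beside 11.7 for all coding genes. The density was 25.3 per Mb without the ecdysone genes and 31.5 without sbb, bun and ush. Of the signalling genes, 12 of 43 (27.9%, 15.3 to 43.7) held a peak, led by S (675.3), rut (384.0) and the Wnt receptor genes fz (162.5) and fz2 (119.1). Delta, which held 1 peak (99.6), is missing from this count because its symbol Dl was not matched.

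Among ion channel genes 1 of 33 (3.03%) held a peak, namely Shal (223.1), and the interval of that share, 0.0767 to 15.8, includes the 11.2% of all eligible coding genes. These channel genes had a median of 18.62 kb of qualifying sequence, and no comparison at matched length was made. In the longest of the 4 groups of coding genes, from 17.46 kb up, 21.1% held a peak. Long channel genes without one included Ca-alpha1T (70.58 kb), nAChRalpha6 (70.13 kb), Sh (55.45 kb) and the sodium channel gene para (50.02 kb). Cell adhesion and axon guidance genes had a median of 24.73 kb of qualifying sequence, and 10 of 68 (14.7%) held a peak, at 4.82 per Mb. They were led by caps (214.0), Fas3 (126.3), Ptp10D (107.9) and Lar (85.92), genes for cell-surface adhesion molecules and receptor tyrosine phosphatases. RNA-binding protein genes held one in 4 of 21 (19.0%), namely heph (234.9), how (112.2), shep (71.28) and cpo (63.62). Genes of the cytoskeleton and junctions held one in 5 of 41 (12.2%), led by the apical polarity gene crb (171.5), Zasp52 (126.3), pyd (115.6) and scrib (96.72).

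**Figure D4:**
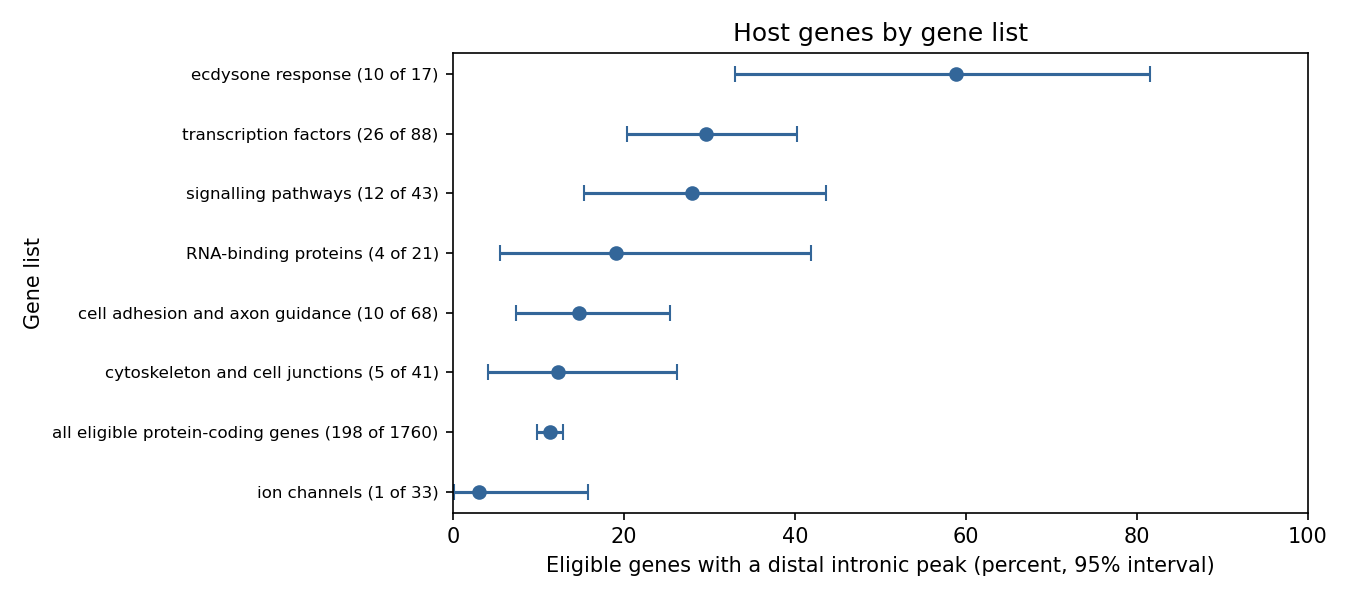
Percent of eligible genes in each list that held a distal intronic peak, with 95% Clopper-Pearson intervals and the counts beside each name. The ecdysone response list lies highest at 58.8% and ion channels lowest at 3.03%, with all eligible protein-coding genes at 11.2%.

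A search for 29 sequence motifs, among them 2 scrambled control words, covered 200 bp around each summit on both strands. The forkhead core, recognised by forkhead family transcription factors, occurred at 43 distal intronic peaks, or 13.4% (9.90 to 17.7). It was present in 4.85% of the 3462 relaxed regions with the same position that did not pass the threshold, and in 3.88% of 134257 windows covering all qualifying intronic sequence. Within 250 bp of the summits there were 75 forkhead matches, and 29 of them (38.7%, 27.6 to 50.6) lay within 50 bp, where an even spread would put 20%. The share was 42.5% (35.2 to 50.1) at nearer intronic peaks. By signal, 14 of the 80 strongest distal intronic peaks had the core, followed by 11, 12 and 6 of 80. It was found at 6 of the 20 strongest. Over the whole peak list, distal intronic peaks included, the core was at 8.92% of peaks, and at nearer intronic peaks it was at 10.6%. Forkhead was singled out after the values of all 29 motifs were seen. The peaks averaged 45.4% GC, the regions that did not pass 44.3% and the windows 40.3%, and the part of GC content in these shares was not tested.

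The CTCF core, a word of an insulator protein's motif, occurred at 49 peaks (15.3%, 11.6 to 19.7), beside 9.19% of the regions that did not pass and 6.99% of windows. Of its matches within 250 bp, 35.9% lay within 50 bp of the summit, beside 31.0% at nearer intronic peaks. The GAGA element, bound by the Trl protein, occurred at 37 peaks (11.6%, 8.27 to 15.6), beside 4.997% of the regions that did not pass and 2.61% of windows. Its matches were more evenly spread, with 23.8% within 50 bp. The element was at none of the 20 strongest peaks, but by signal 9 of the 80 strongest had it, followed by 12, 7 and 9 of 80. A run of 5 CA units occurred at 29 peaks (9.06%), beside 4.48% of the regions that did not pass and 2.68% of windows. The scrambled GAGA word GAAGGAG was at 1.56% of peaks, 3.00% of regions that did not pass and 2.29% of windows. Over the whole peak list, distal intronic peaks included, the GAGA element was at 11.97% of peaks, the CTCF core at 12.11% and the CA run at 5.77%. The GAGA share at distal intronic peaks was thus no higher than in the whole list. At nearer intronic peaks the CTCF core was at 13.28% and the CA run at 9.26%. No test was made against the whole list.

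The search included words attributed to nuclear receptors. The NR2E word AAGTCA occurred at 34 peaks (10.6%, 7.47 to 14.5), beside 10.8% of regions that did not pass and 11.7% of windows. The general nuclear receptor word AGGTCA occurred at 20 peaks (6.25%, 3.86 to 9.49), beside 4.19% of regions that did not pass and 5.13% of windows. The longer FTZ-F1 word TCAAGGTCA was found at 2 peaks (0.625%, 0.0758 to 2.24), beside 0.0578% and 0.101%, too few to describe further. The extended NR2E word AAAAGTCA was at 7 peaks (2.19%), beside 1.96% and 1.78%. The scrambled NR2E word ACATGA occurred at 8.75% of peaks, 7.39% of regions that did not pass and 7.96% of windows. The homeodomain core TAATTA occurred at 5.62% of peaks, 9.62% of regions that did not pass and 13.7% of windows. It was at 7.37% of nearer intronic peaks and at 7.80% of the whole peak list, distal intronic peaks included. The part of GC content in the shares of this word was not tested. A missing match says only that these letters are not in the window.

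**Figure D5:**
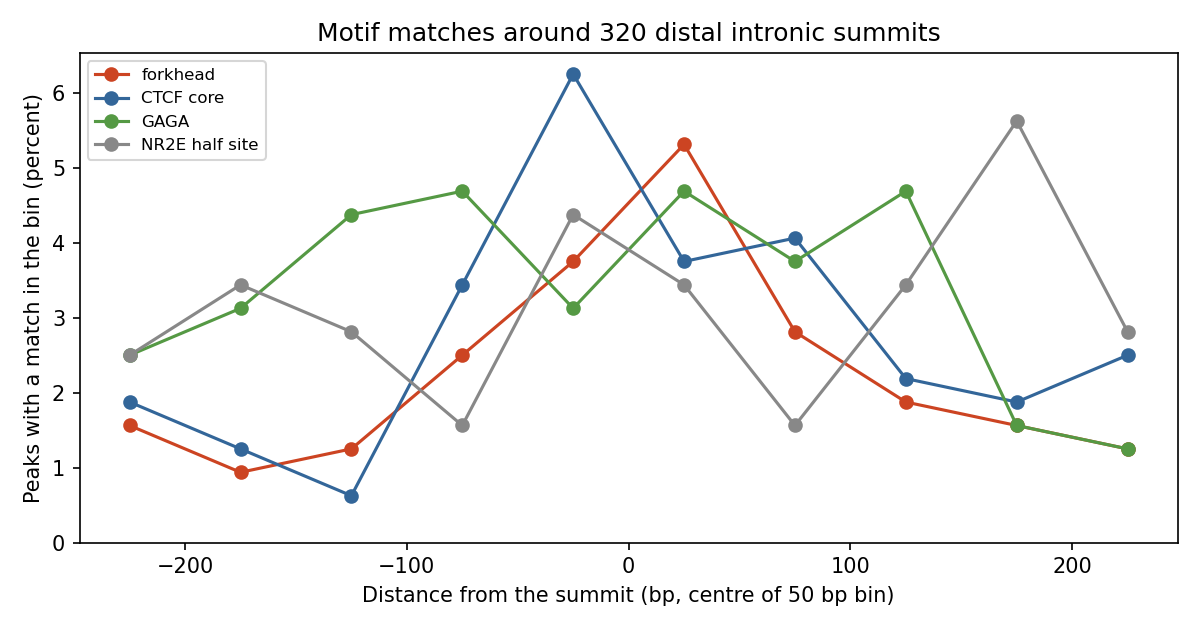
Percent of the 320 distal intronic peaks with a match (vertical axis) in each 50 bp bin of distance from the summit (horizontal axis), one line per motif. Forkhead matches (red) are most frequent in both bins beside the summit, at 3.75% and 5.31%. CTCF core matches (blue) reach 6.25% in the bin just before it and 3.75% just after it, while GAGA (green) and the NR2E word (grey) show no single rise there.

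Distal intronic peaks were tested against the other peak classes most like them for 33 features, namely the 29 motifs, narrow width, signal among the strongest 20% of the list, support by both replicates and the presence of another thresholded summit within 5 kb. The test was a two-sided Fisher's exact test, with Benjamini-Hochberg adjustment over the 66 tests. Against the 896 nearer intronic peaks 1 feature of 33 passed an adjusted p of 0.05 (3.03%). Another summit lay within 5 kb of 158 distal intronic peaks (49.4%) and of 710 nearer ones (79.2%), a log2 odds ratio of -1.97 ± 0.20 (SE; adjusted p by Fisher's exact test = 7.23e-21). That feature is not independent of the rule, because most peaks lie at TSSs and the rule keeps summits away from them.

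None of the 29 motifs passed the test between distal and nearer intronic peaks. The forkhead core was at 13.4% and 10.6% (adjusted p by Fisher's exact test = 0.689; log2 odds ratio 0.40 ± 0.28 SE), the GAGA element at 11.6% and 15.8% (-0.51 ± 0.28 SE, adjusted p = 0.676) and the NR2E word at 10.6% and 8.26% (0.41 ± 0.31 SE, adjusted p = 0.689). Support by both replicates was 52.8% against 55.0% (-0.13 ± 0.19 SE; by the same exact test, adjusted p = 0.892). Against the 70 distal intergenic peaks 0 of 33 features (0.00%) passed Fisher's exact test, and 2 had an unadjusted p below 0.05. By that exact test these were another summit within 5 kb (49.4% against 31.4%, p = 0.00786, adjusted p = 0.26) and the Ets word CCGGAAG (0 of 320, with an interval up to 1.15%, against 2 of 70, p = 0.0318, adjusted p = 0.676). The forkhead core was at 13.4% against 5.71% (adjusted p by Fisher's exact test = 0.676; log2 odds ratio 1.21 ± 0.74 SE), which did not pass.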

How the data were processed

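Peak lists of Hr83-GFP larvae, biological replicates 3 and 4, were used as deposited for dm6. The dm3 lists were not used. Per the labels, chromatin was sonicated and precipitated with an anti-GFP antibody. Per the notes deposited with the samples, a control alignment was used in calling every list, and irreproducible discovery rate between the replicate and pooled lists gave the thresholded one. The names of the aligner and of the calling program are not given in the sources. The deposited signal is the authors' score per peak, not normalized between lists, and served to order and describe the peaks of 1 list and nothing else. The authors' deposited −log10 q-value was not used to rank peaks. No list gives counts, so depth is unknown.

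Summits were placed on the Ensembl release 115 annotation. The 5809 annotated transposable elements were not counted as genes. Sequence was RefSeq's Release 6 genome. Annotated start codons on the plus strand read ATG in 99.55% to 100% of cases per chromosome, and 0 regions ran past a chromosome end. Sequences from 2R are not printed. Regions counted as shared with an overlap of at least 1 bp. Intervals are 95% Clopper-Pearson intervals. Fisher's exact tests (scipy 1.17.1, Python 3.11.15) were adjusted over 66 tests, and log2 odds ratios had 0.5 added to each cell. Peaks are not replicates, so the tests describe the list and not variation between animals. How the biological replicates were raised is not described in the labels.

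The members, gene lists and motifs were chosen with earlier results of these data known. The text names hosts of the 20 strongest peaks, the 8 genes with most peaks, and up to 4 genes per list with the strongest peak. Named after their values were seen were px, EcR, gpp, the ecdysone genes beyond 4, genes without a peak, genes at the thresholds, CG1677, Cph, Delta and Raf. The gene osp was taken off the transcription factor list, as it does not encode one. The symbols CG9650, Dl, Tor, shark and nos were not matched, and Dl is annotated under the name Delta. Alternatives were other distances, windows, overlap rules, gene sets, the strongest 2398 peaks, and the 4797 strongest regions of each replicate alone. Simulated data were used to test the procedures.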

Additional observations from a re-analysis of the deposited data

How the results depend on the processing

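Of 69 alternative values, 52 moved by less than their interval or, for counts, by less than 1.5 times, and 17 moved further. The number of distal intronic peaks was 653 over 2 kb from a TSS, 124 over 10 kb and 128 in the strongest 2398 peaks, against 320. With TSSs of protein-coding genes only it was 382, and 277 with transposable elements counted as genes, an alternative added after the data were seen. From 1 replicate alone it was 324 to 334. Host genes numbered 78 over 10 kb and 105 in the strongest 2398 peaks, against 205, and 205 to 223 from 1 replicate. The share of listed genes with a peak was 10.1% in the strongest 2398 peaks, against 19.9%, and 17.5% to 21.9% from 1 replicate. Support by both replicates was 41.9% when regions had to overlap by 50% and 92.2% in the strongest 2398 peaks, against 52.8%. The share of relaxed regions that passed was 7.53% over 10 kb, against 8.46%. The share among the strongest 20% by signal was 14.4%, and 13.3% to 16.5% from 1 replicate. In the strongest 2398 peaks it was 23.4%. There the strongest 20% were drawn anew from those 2398 peaks, so that value is not the same measure as the 14.4%.

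By Fisher's exact test, 1 feature passed against nearer intronic peaks under every alternative run, the presence of a neighbouring peak. That feature is not independent of the position rule, so its repeated passing says little about the peaks. The motif window does not enter it, so the alternatives of 100 and 400 bp could not change its counts. By the same exact test against distal intergenic peaks, 2 passed over 2 kb, a neighbouring peak (adjusted p = 0.000302) and a run of 8 A (adjusted p = 0.036), and 1 passed with TSSs of protein-coding genes only, the Zelda word CAGGTAG (adjusted p = 0.0106). These were added after the data were seen, and the cause was not tested. All other alternatives gave 0, including each replicate alone. The forkhead share was 8.75% in 100 bp and 18.4% in 400 bp, and the GAGA share 6.88% and 20%. The share of transcription factor genes with a peak was 17.0% in the strongest 2398 peaks. The alternatives for motifs and for the ecdysone and transcription factor lists were also added after the data were seen. No paired analysis was possible because there is only 1 group. Depth is unknown, and the comparison classes share 2 replicates.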
